A study of Mus musculus with 16 samples.

Results

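The genes described here are 10 genes of megakaryocytes and platelets, Pf4, Ppbp, Itga2b, Itgb3, Gp1bb, Gp9, Gp6, Vwf, Treml1 and Clec1b, chosen by symbol. Of the 10, 5 had a row in the stroma table (13344 genes) and 4 in the tumor table (15080 genes), so that 5 were measured at all. Vwf, Itgb3, Itga2b and Pf4 were listed in both tables and Gp9 in the stroma table. Ppbp, Gp1bb, Gp6, Treml1 and Clec1b were not analysed here.

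Total RNA was sequenced from bone marrow of C57BL/6J mice that carried BCR-ABL+, Arf-/- B-cell acute lymphoblastic leukemia (B-ALL), in 4 groups of 4 libraries. The leukemia cells (500000 per mouse, by tail vein) carried the red marker mCherry, and the mice were either wild type (WT) or deficient for IL-6 (IL-6 KO), 6 to 8 weeks old when purchased and untreated. Marrow was taken on day 8 and sorted into mCherry+ cells (WT tumor and IL-6 KO tumor) and mCherry- cells (WT stroma and IL-6 KO stroma). The genotype is that of the host: leukemia cells in both groups of tumor had the same BCR-ABL+, Arf-/- genotype, and stroma here means every live mCherry- marrow cell left after red cell lysis, not a purified stromal type. The labels do not say whether libraries of the same number shared an animal or whether any were pooled, so p-values measure the spread between these libraries.

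Megakaryocytes are the large marrow cells that shed platelets. Platelets hold no nucleus and carry mRNA inherited from the megakaryocyte. They bind to von Willebrand factor through the glycoprotein Ib-IX-V complex, to collagen through glycoprotein VI and to fibrinogen through the integrin αIIbβ3, and they release chemokines such as platelet factor 4 from α-granules. Several of these genes are also used elsewhere: Vwf by endothelial cells, Itgb3 by macrophages and other cells in which β3 pairs with αV, and Itga2b by early hematopoietic progenitors. IL-6 is a cytokine known to raise platelet production.

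Positions are on GRCm38 with GENCODE vM21. Itga2b (ENSMUSG00000034664, 30 exons) lies at chr11:102453297-102470122 on the minus strand, where it overlaps Gm23563 on the same strand, and Itgb3 (ENSMUSG00000020689, 15 exons) on the same chromosome at chr11:104608000-104670476 on the plus strand. Gp9 (ENSMUSG00000030054) lies at chr6:87778072-87779768, Vwf (ENSMUSG00000001930, 52 exons) at chr6:125546774-125686679 and Pf4 (ENSMUSG00000029373) at chr5:90772435-90773383, all on the plus strand. No transcript of another gene came near to those of these 5 genes in sequence, at 97% identity over 150 nucleotides, so their counts did not depend on how reads of copies were shared out.

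Pf4 and Gp9 are the measured genes most restricted to the megakaryocyte lineage, and the promoters of such genes are known to carry GATA and ETS sites, which GATA1 and FLI1 bind. Their 250 bases before the RefSeq start (GRCm38.p6) are shown for that reason, 5′ to 3′ on the gene's strand, Pf4 at chr5:90772185-90772434 and Gp9 at chr6:87777820-87778069, with matches to the searched letters in capitals.
Pf4: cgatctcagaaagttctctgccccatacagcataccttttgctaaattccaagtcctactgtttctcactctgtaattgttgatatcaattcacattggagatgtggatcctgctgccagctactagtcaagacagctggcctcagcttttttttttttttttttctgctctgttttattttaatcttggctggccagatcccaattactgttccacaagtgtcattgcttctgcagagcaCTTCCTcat
Gp9: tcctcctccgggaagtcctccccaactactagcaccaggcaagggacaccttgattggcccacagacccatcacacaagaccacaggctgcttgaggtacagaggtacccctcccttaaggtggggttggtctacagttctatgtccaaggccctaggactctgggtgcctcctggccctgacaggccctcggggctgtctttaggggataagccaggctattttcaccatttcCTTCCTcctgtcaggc
The capitals are CTTCCT in both, the reverse complement of AGGAAG, one of the ETS motifs searched (AGGAAG and CGGAAG, both strands). Its first letter stood at position -9 in Pf4 and at -16 in Gp9, counted back from the start. Among 32851 promoters of 300 bases in the same RefSeq table, which reach 50 bases past the start, 46.47% held at least 1 such match. Of the 8 promoters of these genes given there, 4 held such a match. GATA motifs (AGATAA or AGATAG and TGATAA or TGATAG, both strands) were in 29.76% of all promoters and in 4 of the 8 promoters of these genes given in the table, among them Pf4, with its match at position 36 after the start. The others were those of Clec1b, Gp1bb and Gp6, whose levels were not analysed here. Most of the RefSeq window of Itga2b lies within the GENCODE gene, and it is not shown.

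Values are normalized counts, which the authors scaled within each table, so that levels were compared between genotypes within a table and not between tables. In each library the low values that recurred exactly were whole multiples of a smallest unit, here called a step, for at least 96.0% of them. A step was taken as about the worth of 1 read, which was not checked on the reads. The step ranged from 0.399 to 0.895 over WT stroma libraries and from 1.14 to 3.41 over IL-6 KO stroma libraries. In tumor it ranged from 0.989 to 1.58 for WT and from 0.604 to 1.32 for IL-6 KO. Between 307 and 1121 genes were listed at 0 in a WT stroma library and between 622 and 1570 in an IL-6 KO stroma library. Divided by its step, a library summed to between 11.9 M and 41.3 M steps in stroma and between 26.2 M and 78.3 M in tumor (M, 1e6). All tumor sums exceed the approximate depth per sample that the paper states, so 1 step may be worth less than 1 read there. The most abundant RNA alone took 20.3% to 50.1% of each WT stroma library and 61.5% to 79.0% of each IL-6 KO stroma library.

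Levels per kilobase of the longest transcript (normalized counts per kb) set the genes in order within a group. In WT stroma the means were 29.6 for Itga2b, 25.1 for Itgb3, 22.6 for Gp9 and 18.1 for Vwf. The libraries of these 4 overlapped, so that their order was not resolved, and Pf4 (0 to 11.9) lay below Itgb3, Gp9 and Vwf in every library but overlapped Itga2b. In IL-6 KO stroma Itga2b (65.8 to 235) stood above every library of the other 4, which lay between 0 and 45.5 and overlapped. In tumor Itgb3 had the highest mean, 31.9 in WT and 35.4 in IL-6 KO, and Vwf the lowest, 3.01 and 0.907. In WT tumor Itga2b (4.10 to 40.3) overlapped Itgb3 (23.8 to 49.7), Pf4 (10.1 to 16.5) and Vwf (2.13 to 4.98), while Itgb3, Pf4 and Vwf did not overlap one another. In IL-6 KO tumor Pf4 (8.21 to 47.2) overlapped Itgb3 (23.0 to 45.3), and Itga2b (2.19 to 5.67) lay below both and overlapped Vwf (0.275 to 2.29).

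The rank of a gene among all genes of its table, as a percentile, gave a scale that did not depend on the separate normalization, though it depended on which genes each table listed. Vwf lay between the 55.5 and 84.3 percentile in the 8 stroma libraries and between the 1.63 and 24.2 percentile in the 8 tumor libraries. Itgb3 lay between 49.3 and 74.4 in stroma and between 34.8 and 41.8 in tumor. Itga2b lay between 31.2 and 92.2 in stroma and between 6.61 and 34.8 in tumor. Vwf and Itgb3 therefore ranked higher in every stroma library than in every tumor library, whereas Itga2b overlapped between the compartments and Pf4 was low in both. These ranks are a description and were not tested across tables.

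**Figure D1:**
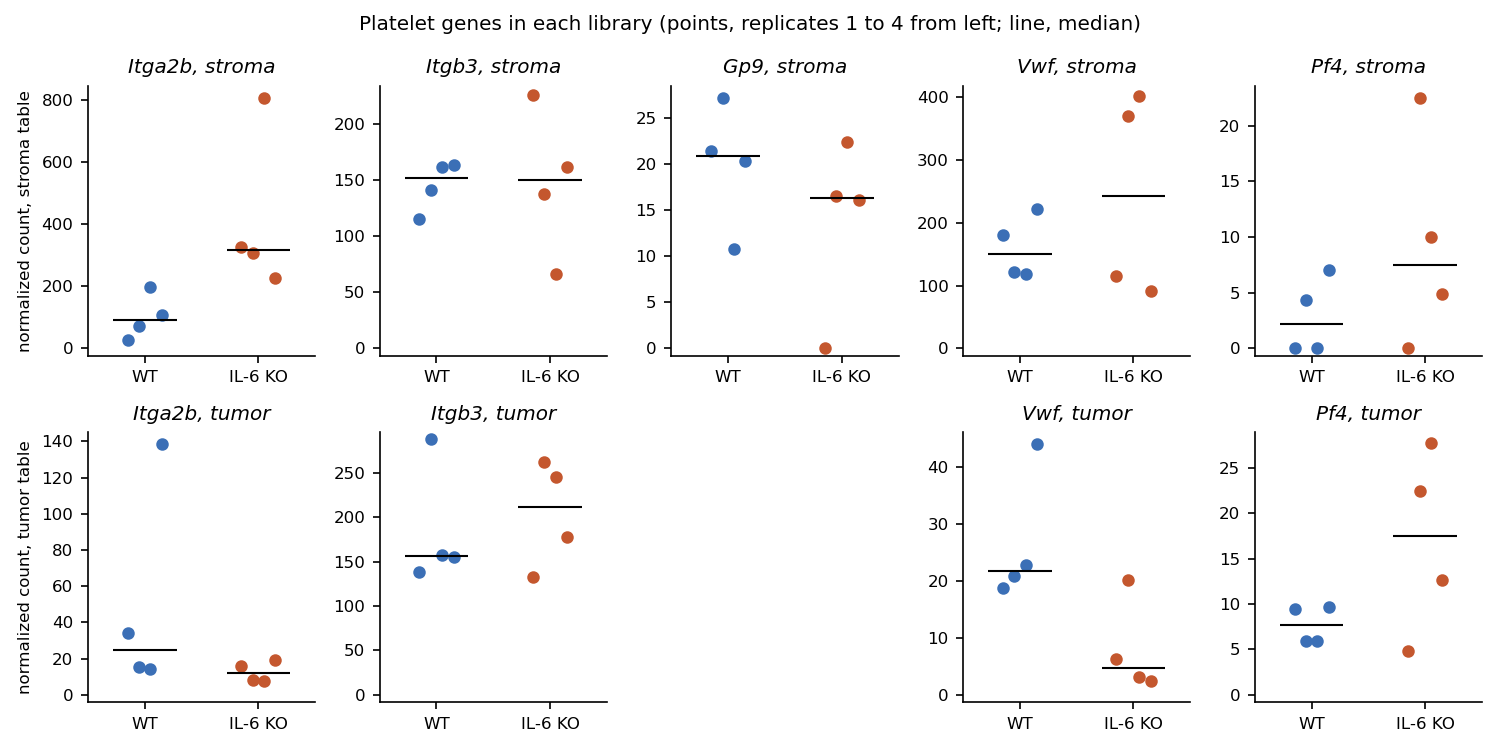
Normalized counts of the 5 measured genes in each library, stroma in the upper row and tumor in the lower, WT in blue and IL-6 KO in orange, on separate linear axes from 0. Points are libraries and lines are medians. Itga2b in stroma is the gene whose genotypes do not overlap, and Vwf in tumor is low in 3 of 4 IL-6 KO libraries.

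Loss of IL-6 in the host was compared first in stroma, the sort of host cells. None of the 4 genes tested there passed. Itga2b had its 4 IL-6 KO libraries above the WT libraries, by an estimate that did not pass, while Itgb3, Vwf and Gp9 overlapped. The test, two-sided, was that of limma for log2(normalized count + 1), adjusted by Benjamini-Hochberg across the 12202 genes whose mean exceeded 10. Of all genes tested, 0.00820% had an adjusted p under 0.05 (1 gene) and 9.15% an unadjusted p under 0.05 (1117 genes). Of the 4 members tested, 0 had an adjusted p under 0.05 and 1 had an unadjusted p under 0.05. Their median log2 fold change was 0.14 against -0.01 for all genes.

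Itga2b encodes αIIb (CD41), the subunit that makes the fibrinogen receptor specific to platelets. WT stroma 1 to 4 held normalized counts of 28.2, 72.6, 198 and 108, and IL-6 KO stroma 1 to 4 held 326, 306, 807 and 226. Every IL-6 KO library lay above the highest WT library, WT stroma 3, and IL-6 KO stroma 3 lay well above the other three. The WT mean was 102 ± 71.9 (SD, n = 4), and that of IL-6 KO was 416 ± 264 (SD, n = 4). The log2 fold change was 2.16 ± 0.59 (SE; 95% CI 0.88 to 3.43), 4.46-fold on this scale, with an unadjusted p of 0.00293 and an adjusted p of 0.324 by limma. Of all genes tested in stroma, 2.54% likewise had the genotypes apart with IL-6 KO above, and 3.95% were higher in IL-6 KO with an unadjusted p under 0.05. The difference failed the correction.

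Itgb3 encodes β3, the partner of αIIb. It stood at 115, 141, 162 and 163 in the WT libraries of stroma against 226, 138, 66.0 and 162 in the IL-6 KO libraries. The IL-6 KO libraries lay on both sides of the WT libraries, around means of 145 ± 22.3 (SD, n = 4) for WT and 148 ± 66.0 (SD, n = 4) for IL-6 KO. The log2 fold change was -0.09 (95% CI -1.05 to 0.87; adjusted p = 0.971 by limma).

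The ratio of the 2 subunit mRNAs within a library, per kilobase, does not depend on how libraries were scaled. It was 0.411, 0.864, 2.06 and 1.11 in WT stroma 1 to 4 and 2.43, 3.74, 20.6 and 2.36 in IL-6 KO stroma 1 to 4. In WT stroma the ratio thus lay on both sides of 1, and in each IL-6 KO library of stroma Itga2b exceeded Itgb3. In tumor the ratio was 0.419, 0.0916, 0.151 and 1.51 in WT and 0.199, 0.0542, 0.0516 and 0.185 in IL-6 KO, so that Itgb3 exceeded Itga2b in 7 of 8 libraries. These ratios were not tested.

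**Figure D2:**
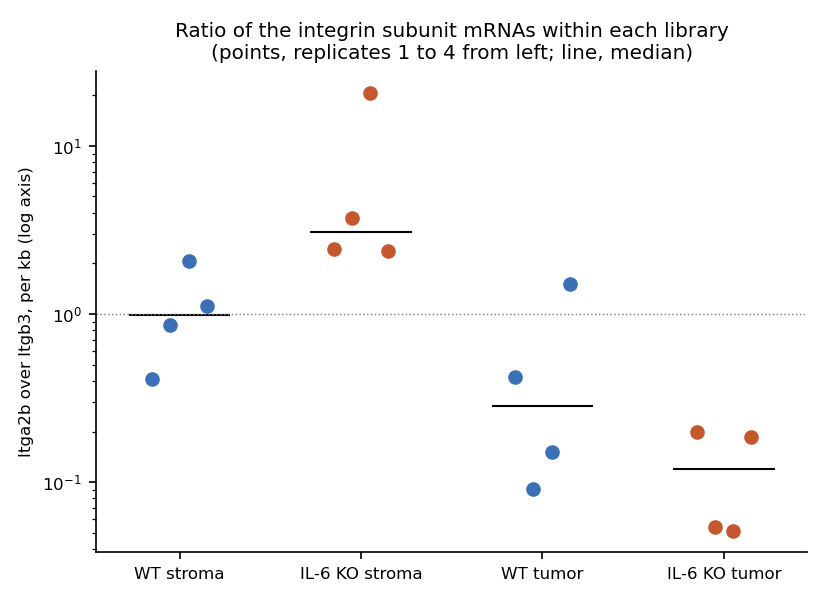
Ratio of Itga2b to Itgb3, each as normalized counts per kb, in the 16 libraries by group, on a log axis; points are libraries, lines are medians and the dotted line marks equal levels. The 4 IL-6 KO stroma libraries lie between 2.36 and 20.6, above the WT stroma libraries, and the IL-6 KO tumor libraries lie between 0.0516 and 0.199.

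Gp9 encodes glycoprotein IX, the small subunit needed for the von Willebrand factor receptor to reach the surface. WT stroma held 21.4, 27.1, 10.8 and 20.3 normalized counts and IL-6 KO stroma 0, 16.5, 22.4 and 16.1. The library listed at 0, IL-6 KO stroma 1, had the coarsest step, 3.41, and the other 3 IL-6 KO libraries lay within the WT range. The log2 fold change was -1.12 (95% CI -3.48 to 1.23; adjusted p = 0.777 by limma), and -0.06 without IL-6 KO stroma 1. Gp5, another subunit of this receptor, was under the filter in stroma, at 13.1, 4.24, 3.23 and 0 in WT and 0, 15.3, 21.5 and 1.72 in IL-6 KO. Gp1ba, the subunit that contacts the factor itself, was not analysed here.

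Vwf encodes the factor, stored in α-granules of platelets and in endothelial cells. Its level was 180, 121, 119 and 222 in WT stroma as against 116, 370, 402 and 91.4 in IL-6 KO stroma. In IL-6 KO stroma 2 and 3 it was above all WT libraries and in 1 and 4 below them, so the genotypes overlapped (log2 fold change 0.36, 95% CI -0.78 to 1.51, adjusted p = 0.869 by limma). The same 2 libraries were highest in the summed level of the erythroid markers with a row (15 of 16), at 258498 and 427929, against 199081 to 245388 in WT stroma, while IL-6 KO stroma 1 and 4 were lowest, at 90621 and 95100. Of 14 endothelial markers 7 had a row in stroma, with sums of 215 to 304 in WT and 129 to 441 in IL-6 KO. Among them Kdr, under the filter on low values, was at 0 to 13.4 in WT and 0 to 2.76 in IL-6 KO. Cdh5, Tek and Emcn were not analysed here. Of the 5 endothelial markers tested, 3 were higher and 2 lower in IL-6 KO, with a median log2 fold change of 0.31. The part of either cell type in the Vwf values was not tested.

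Pf4 encodes platelet factor 4 (CXCL4), an abundant α-granule chemokine. In stroma it was listed at 0, 4.36, 0 and 7.0 in WT and 0, 22.4, 10.0 and 4.87 in IL-6 KO, under the filter on low values. These values are between 0 and 17.0 steps, so that Pf4 was close to the limit of detection in all 8 libraries. With the filter lowered to a mean over 1, its log2 fold change was 1.29 (adjusted p = 0.770 by limma).

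Other genes of the lineage came from a list of 74 genes written from general knowledge, of which 57 had a row and 54 were tested in stroma. None of these passed by limma at an adjusted p under 0.05. At an unadjusted p under 0.05, 5 were higher and 2 lower in IL-6 KO, where 3.95% of all genes were higher and 5.20% lower. The median log2 fold change of the 54 was 0.17, against -0.01 for all genes. The lower ones of the list were transcription factors. Zfpm1, the GATA1 cofactor FOG1, was at 3849, 2667, 1815 and 1941 in WT and 735, 990, 1048 and 1152 in IL-6 KO, with no overlap (log2 fold change -1.34, unadjusted p = 0.00104, adjusted p = 0.302 by limma), where 3.25% of all genes had the genotypes apart with IL-6 KO below and 5.20% were lower at an unadjusted p under 0.05. Zfpm1 is used by erythroid cells as well. The erythroid marker genes had a median log2 fold change of -0.68 in stroma, with 12 of 15 lower in IL-6 KO. Their summed level was 258498 and 427929 in IL-6 KO stroma 2 and 3, above WT stroma (199081 to 245388). It was 90621 and 95100 in IL-6 KO stroma 1 and 4, below WT stroma. The part of erythroid cells in the Zfpm1 values was not tested. Gm20388 overlaps Zfpm1 on the same strand. The other, Tal1, an erythroid and megakaryocytic factor named after its value was seen, had a log2 fold change of -1.13 (adjusted p = 0.507).

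The higher ones were mostly genes that myeloid cells share with platelets. Plek, pleckstrin, a protein kinase C substrate of platelets and leukocytes, was at 30.6, 95.4, 299 and 49.7 in WT and 328, 194, 781 and 199 in IL-6 KO, highest in the same library of each genotype as Itga2b (adjusted p = 0.438 by limma). Ptgs1, the cyclooxygenase that makes the precursor of thromboxane, had a log2 fold change of 1.56 (adjusted p = 0.449), and Flna, the filamin that anchors glycoprotein Ib to actin, of 0.93 (adjusted p = 0.458). Fcer1g, the signalling chain of glycoprotein VI and of Fc receptors, also named after its value was seen, had a log2 fold change of 2.52 (adjusted p = 0.514). Gata1, Fli1 and Nfe2, regulators of megakaryocyte fate, overlapped between genotypes. Gata1 was at a mean of 384 in WT and 336 in IL-6 KO (adjusted p = 0.878), Fli1 at 243 and 318 (adjusted p = 0.911) and Nfe2, needed for platelet release, at 1036 and 652 (adjusted p = 0.582).

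Marker levels of other cells also differed between the stroma libraries. The 14 neutrophil markers summed to 7831 to 15080 in WT stroma and to 8130 to 33439 in IL-6 KO stroma, with the lowest IL-6 KO sum in IL-6 KO stroma 3, the library highest in Itga2b. The 8 monocyte and macrophage markers with a row, of 12, summed to 293 to 667 in WT and 523 to 930 in IL-6 KO. The 5 basophil and mast cell markers with a row, of 12, summed to 280 to 541 in WT and 500 to 1060 in IL-6 KO, of which Mcpt8 was at 0 in 3 of 8 libraries and Cpa3, Fcer1a and Ms4a2 were not analysed here. The 8 stem and progenitor markers with a row, of 12, overlapped, at 515 to 1071 in WT and 599 to 936 in IL-6 KO. Their part in the Itga2b values was not tested. In bulk samples fewer cells of a type and less RNA per cell cannot be told apart.

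**Figure D3:**
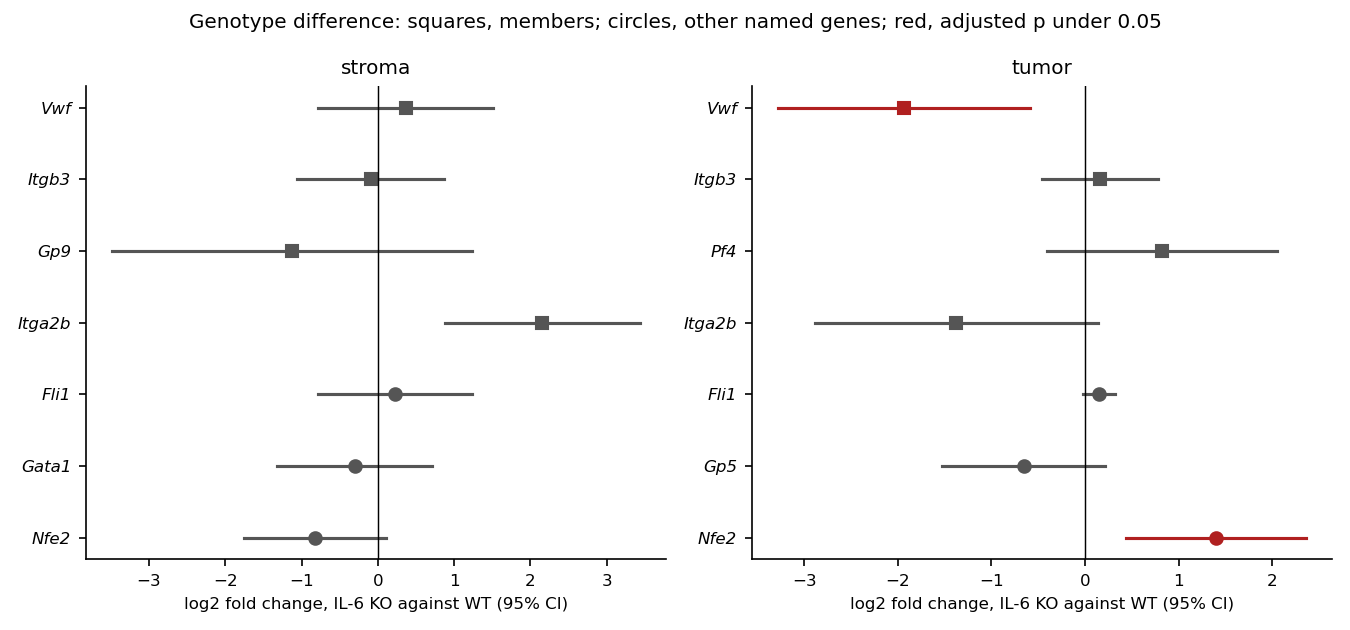
Log2 fold change of IL-6 KO against WT with its 95% confidence interval for the genes tested in stroma (left) and tumor (right); squares are the listed genes and circles the regulators and receptor subunits named with them. Red marks an adjusted p under 0.05, reached in tumor by Vwf, at -1.93, and by Nfe2, at 1.40.

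The same genes were then compared in tumor, the sort of mCherry+ B-ALL cells. The B-lineage markers with a row (11 of 12) summed to 140021 to 144641 in WT and to 153619 to 158343 in IL-6 KO. Of the 14493 genes tested, 19.8% had an adjusted p under 0.05, 10.6% higher and 9.16% lower in IL-6 KO. Of the 4 members tested 1 passed: Vwf fell, while Itga2b, Itgb3 and Pf4 did not pass. Their median log2 fold change was -0.60, against -0.01 for all genes.

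Vwf was at 18.8, 20.9, 22.7 and 44.0 in WT tumor 1 to 4 and 6.24, 20.2, 3.13 and 2.43 in IL-6 KO tumor 1 to 4. Of the IL-6 KO libraries 3 lay below every WT library and the other, IL-6 KO tumor 2, within the WT range. In steps the values were 11.9, 14.0, 23.0 and 40.9 in WT and 10.3, 15.4, 3.95 and 3.83 in IL-6 KO. Each value would stand for about as many reads if 1 step was 1 read. The mean was 26.6 ± 11.7 (SD, n = 4) for WT and 8.01 ± 8.32 (SD, n = 4) for IL-6 KO, and the log2 fold change was -1.93 ± 0.60 (SE; 95% CI -3.28 to -0.59; adjusted p = 0.0487 by limma), 3.82-fold lower in IL-6 KO on this scale. The gene passed the filter through its WT level, since its mean in IL-6 KO was under 10. The call stood close to the threshold. It was lost by limma with quantile normalization (adjusted p = 0.0853) and with a replicate block (adjusted p = 0.0898). The block left the log2 fold change at -1.93 and added terms for numbers that were not taken to pair WT with IL-6 KO libraries. The call was also lost when any library other than IL-6 KO tumor 2 was left out (adjusted p 0.0663 to 0.120).

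**Figure D4:**
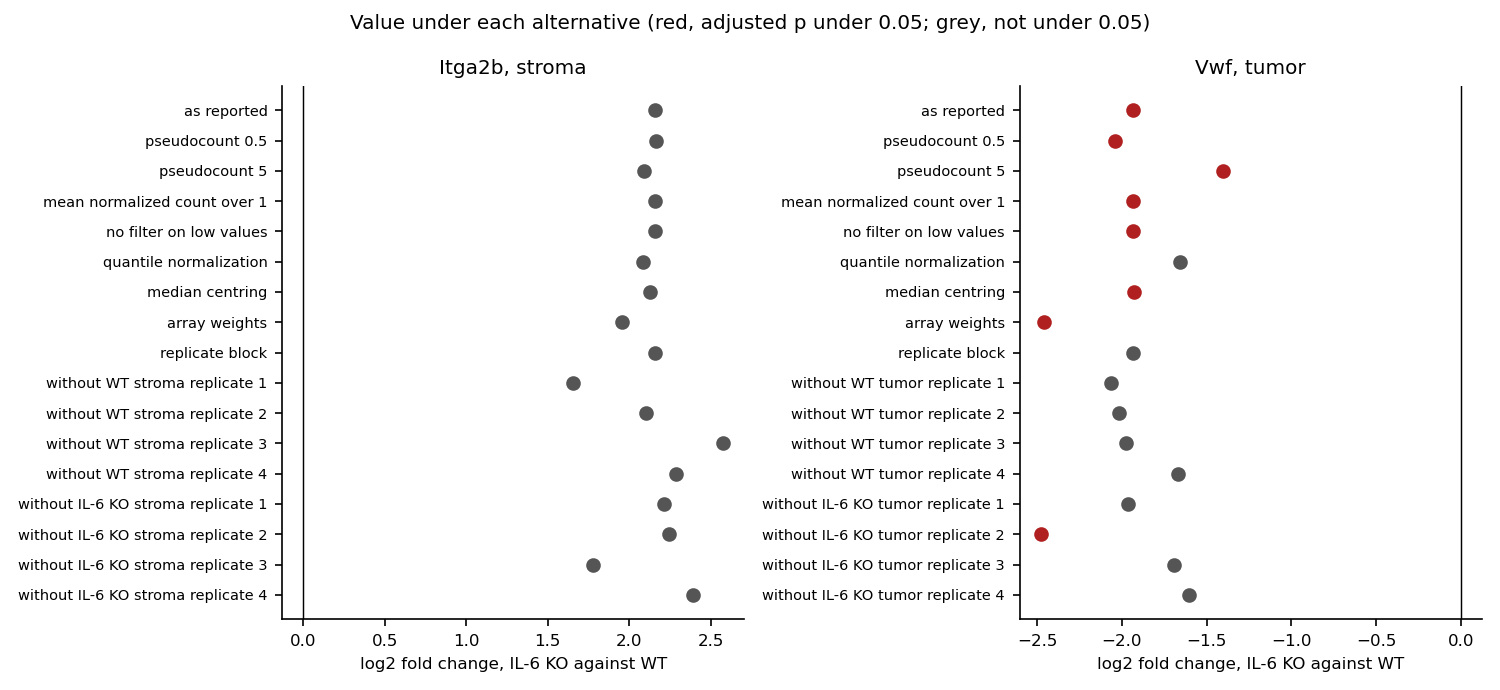
Log2 fold change of Itga2b in stroma (left) and Vwf in tumor (right) as reported, under 8 other settings of the analysis and with each of the 8 libraries left out; red marks an adjusted p under 0.05. Itga2b stays between 1.66 and 2.58 and never passes, and Vwf stays between -2.48 and -1.40 and passes as reported, under 6 of the other settings and with 1 library left out.

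Itga2b was at 34.4, 15.6, 14.1 and 138 in WT tumor and 15.7, 8.45, 7.52 and 19.5 in IL-6 KO tumor. The WT mean of 50.6 ± 59.2 (SD, n = 4) was set by WT tumor 4, the library also highest in Vwf. The log2 fold change was -1.37 (95% CI -2.89 to 0.14; adjusted p = 0.179 by limma), and -0.69 without WT tumor 4. The estimate in tumor was thus negative and that in stroma positive, and the difference between compartments was not tested.

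Itgb3 was at 138, 287, 157 and 155 in WT tumor and 133, 262, 246 and 178 in IL-6 KO tumor (log2 fold change 0.16, 95% CI -0.46 to 0.78, adjusted p = 0.713 by limma). Pf4 was at 9.49, 5.95, 5.94 and 9.69 in WT tumor and 4.83, 22.4, 27.7 and 12.7 in IL-6 KO tumor. These were whole numbers of steps, 6, 4, 6 and 9 in WT and 8, 17, 35 and 20 in IL-6 KO. The gene passed the filter through its IL-6 KO level, since its mean in WT was 7.77. Pf4 lay above every WT library in 3 of 4 IL-6 KO libraries and below them in the other (log2 fold change 0.83, 95% CI -0.40 to 2.05, adjusted p = 0.313 by limma). Without IL-6 KO tumor 1 the log2 fold change was 1.29 (adjusted p = 0.108). Gp5 was at a mean of 28.3 in WT and 16.6 in IL-6 KO (adjusted p = 0.261), and Gata1 and Gp9 were not analysed here in tumor.

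Of the 74 other genes of the lineage, 57 had a row in tumor, 54 were tested and 16 passed, 11 higher and 5 lower in IL-6 KO, which is 29.6% against 19.8% of all genes. Their median log2 fold change was 0.09. By role, 8 of 16 signalling and cytoskeleton genes passed (7 higher), 5 of 11 transcription factors (2 higher), 2 of 15 granule and secretion genes (1 higher) and 1 of 12 other surface receptors, which was higher. Of the higher signalling and cytoskeleton genes, Tuba8 passed the filter through its IL-6 KO level, at means of 4.11 in WT and 18.7 in IL-6 KO. Most that passed are used widely in leukocytes, B cells included, rather than restricted to platelets. The count was 9 without WT tumor 2 and 8 without IL-6 KO tumor 1 or IL-6 KO tumor 4, where the count over all genes also fell, from 2870 to 1791, 1617 and 1569.

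Among the signalling and cytoskeleton genes, Flna stood at 18585 ± 2196 (SD, n = 4) for WT and rose to 30371 ± 3964 (SD, n = 4), by 0.71 on the log2 scale (adjusted p = 0.00393 by limma). Syk, the kinase downstream of glycoprotein VI, CLEC-2 and the B-cell receptor, rose by 0.30 on the log2 scale (adjusted p = 0.00554). Fermt3, kindlin-3, which activates αIIbβ3 and the leukocyte integrins, rose by 0.38 (adjusted p = 0.00531), and Tuba4a, an α-tubulin of platelets, by 0.35 (adjusted p = 0.0184). F13a1, the A chain of coagulation factor XIII, made by megakaryocytes and monocytes, was at 165, 136, 117 and 94.1 in WT and 491, 447, 176 and 358 in IL-6 KO (log2 fold change 1.44, adjusted p = 0.0126).

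Those that fell included Srgn, serglycin, the proteoglycan that packs granules of platelets and leukocytes, from 2144 to 1314 (log2 fold change -0.72, adjusted p = 0.00308 by limma). Meis1, a homeobox factor of stem cells and megakaryocytes, was at 96.8, 250, 133 and 85.9 in WT and 25.7, 33.8, 55.8 and 27.8 in IL-6 KO (log2 fold change -1.89, adjusted p = 0.00839). Its highest library was WT tumor 2. Of the regulators, Nfe2 rose from 36.3 to 92.0 (log2 fold change 1.40, adjusted p = 0.0465), with libraries that overlapped, and Fli1, at 3273 in WT and 3623 in IL-6 KO, did not pass (adjusted p = 0.204).

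**Figure D5:**
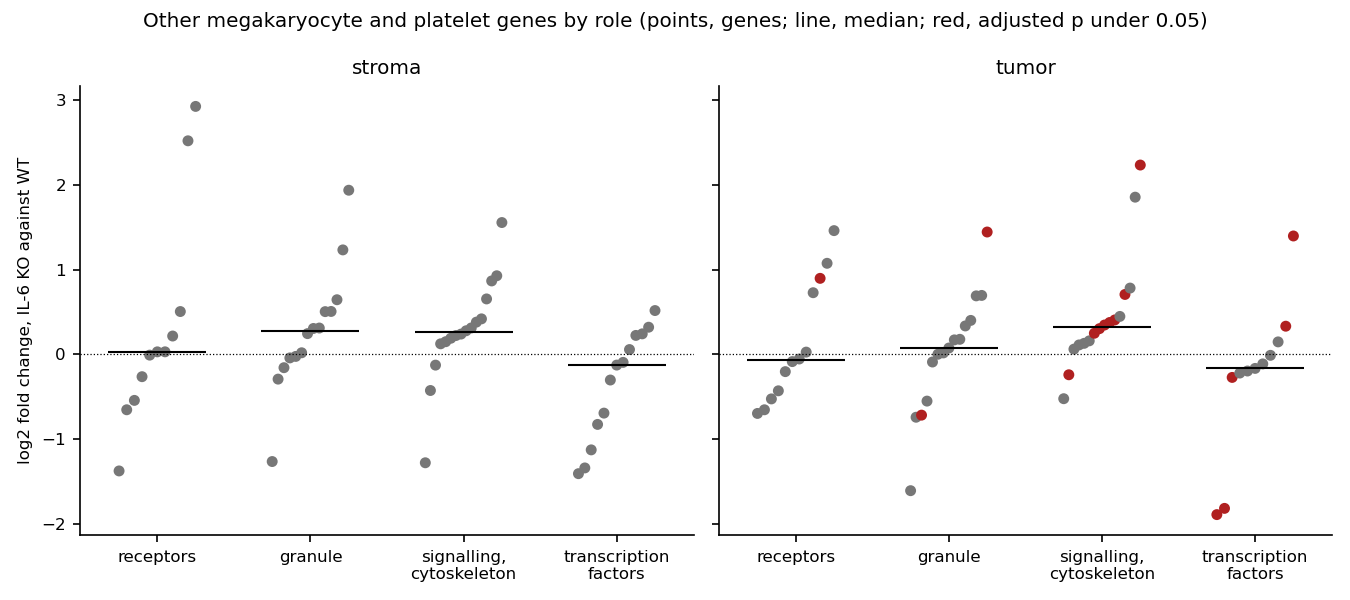
Log2 fold change of IL-6 KO against WT for each of the other megakaryocyte and platelet genes tested in stroma (left) and tumor (right), by role; points are genes, lines are medians and red marks an adjusted p under 0.05. No gene is red in stroma, and in tumor 16 of 54 are, 8 of them among the 16 signalling and cytoskeleton genes.

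Of the markers of other cells in tumor, those of neutrophils were higher in IL-6 KO. All 14 neutrophil markers had a row. Of these, 11 passed as higher and 0 as lower, where 10.6% of all genes passed as higher. Among the higher, Ly6g passed the filter through its IL-6 KO level, at means of 6.94 in WT and 28.3 in IL-6 KO. The 14 markers summed to 4696 to 5433 in WT tumor and 7387 to 18184 in IL-6 KO tumor, lowest in IL-6 KO tumor 3. F13a1 and Nfe2 were likewise lowest in IL-6 KO tumor 3 among the IL-6 KO libraries. The monocyte and macrophage markers summed to 2386 in IL-6 KO tumor 3 and were lowest in IL-6 KO tumor 4, at 2378. For the other lists, 3 of 11 monocyte and macrophage, 1 of 3 basophil and mast, 4 of 11 B lineage, 2 of 8 mesenchymal, 1 of 10 erythroid, 1 of 6 endothelial and 1 of 7 stem and progenitor markers tested passed in tumor. The share of all genes that passed in tumor was 19.8%. In stroma no marker of any of these lists passed by limma; at an unadjusted p under 0.05, where 9.15% of all genes lay, 5 of 15 erythroid, 4 of 14 neutrophil, 1 of 6 monocyte and macrophage, 1 of 4 basophil and mast, 1 of 10 B lineage, 1 of 5 mesenchymal, 0 of 5 endothelial and 0 of 6 stem and progenitor markers did. Of the endothelial markers, which bear on Vwf, 6 had a row in tumor and summed to 12934 to 15523 in WT and 15795 to 17006 in IL-6 KO. The largest of these, Erg, was at a mean of 6769 over the tumor libraries and is not restricted to endothelium. The low markers Cdh5 (log2 fold change 0.0079, adjusted p = 0.993) and Flt1 (-0.38, adjusted p = 0.585) did not pass. Kdr, Tek and Tie1 were not analysed here in tumor. The part of these cells in the Vwf, F13a1 and Nfe2 values was not tested.

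The marker with the largest mean in each list was not always one restricted to its cell type. In stroma these were Hbb-bs at 75146 (listed under the symbol Hbb-b1), Ltf at 8769, Bach2 at 602, Meis1 at 511, Hdc at 346, Col1a1 at 340, Csf1r at 320 and Erg at 137, for erythroid, neutrophil, B lineage, stem and progenitor, basophil and mast, mesenchymal, monocyte and macrophage and endothelial cells in that order. In tumor, Igll1, the surrogate light chain of B-cell precursors, was at 24725, Alpl at 14919, Tfrc at 8676, Erg at 6769, Ngp at 2591, Mrc1 at 1443, Cd48 at 1096 and Hdc at 74.7. In tumor, Alpl, Tfrc and Erg stood well above more restricted markers of their lists, Col1a1 at 93.8, Alas2 at 28.8 and Cdh5 at 33.5 (named after their values were seen), so that their levels do not show that the sort held those cells.

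The genes whose pattern over the 8 libraries of a table was most like the mean centred log2 level of the 4 members tested were Eif2b2, D2hgdh, Ranbp3, LOC115487916 and Fancl in stroma and Tsen15, Arhgap42, Pgrmc2, Igf1r and Arhgap21 in tumor. Likeness was Pearson's r, between 0.935 and 0.969 in stroma among 7991 genes and between 0.939 and 0.971 in tumor among 11149 genes, with a mean of at least 50. It is a description with no test, over 8 libraries that share depth and genotype. The members themselves did not move together. In stroma r was between -0.69 (Vwf with Itgb3) and 0.35 (Vwf with Gp9), and in tumor between -0.53 (Itgb3 with Itga2b) and 0.53 (Vwf with Itga2b).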

How the data were processed

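RNA of mCherry+ (tumor) and mCherry- (stroma) marrow cells was measured in 4 libraries per host genotype, whose labels give genotype, compartment and a replicate number. The authors made directional libraries after depletion of ribosomal RNA, aligned reads to mm10, quantified them with Salmon 1.3.0 and normalized with DESeq2 1.28.1. The authors deposited normalized counts for each compartment, which are a scaled signal that carries Salmon's length and bias corrections and not whole reads. Their own comparisons were deposited too and were not used. No column of another sample was present (0 columns). Which strand setting the counting used is not given in the sources used here.

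Stroma and tumor were fitted separately with limma 3.58.1 in R 4.3.3 on log2(normalized count + 1), with variances that follow the mean, for genes with a mean over 10, two-sided, with Benjamini-Hochberg adjustment over all genes tested calling genes at 0.05, with genotype as the sole term. Fold changes on this scale understate the change of low genes. In simulated data, where 200 genes differed by 2 on the log2 scale, 32 were recovered in stroma (1 false call among 12202 genes) and 175 in tumor (6 false calls among 14493 genes).

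The genes and lists were chosen with earlier results of these data known. Named besides the 10 genes were Gp1ba, Gp5, Gata1, Fli1 and Nfe2, the other lineage genes with the smallest p (8 where any passed, otherwise 4), the most abundant marker of each cell type and the 5 genes most like the members in each table. Some genes that this rule named are not reported here. Promoters were matched by symbol, and RefSeq gave those of 8 members. The step was the unit of which the most values recurring in a library were whole multiples, to a tolerance of 0.001. Only 2.85% to 4.47% of all low values in stroma and 9.90% to 12.9% in tumor were whole to a tolerance of 0.01, so whole reads were not recovered and count tests were not run. Depth covers counting error only, and no interval was computed from it. Copies were sought with BLAST 2.17.0. Python 3.11.15 and pandas 2.3.3 were used for the levels and matplotlib 3.10.9 for the figures. The alternatives were other pseudocounts, filters, scalings, array weights, a replicate block and each library left out.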

Additional observations from a re-analysis of the deposited data

Results flagged for a closer look

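Libraries far from the other 3 of their group were sought. The gap to the nearest neighbour, relative to the group's range, had to exceed Dixon's critical value at 95%. This held in 9 of the 90 groups of 4 libraries examined over the named genes (10.0%). The critical value is set for about 1 in 20 with normal values. The counts were not transformed and the groups share libraries, so these shares do not test for an excess. WT tumor 4 stood apart for Itga2b, at a normalized count of 138, and for Vwf, at 44.0, the highest values of both genes in tumor. WT tumor 2 stood apart for Itgb3, at 287, above the other WT tumor libraries, and for Flna, at 15296, below them. IL-6 KO tumor 2 stood apart for Syk, at 12629, for Alpl, at 17586, and for Cd48, at 952, the last below its group. WT tumor 3 stood apart for Syk, at 9876, though the WT tumor libraries differed by little. In stroma, IL-6 KO stroma 1 stood apart for Col1a1, at 1517, where the other 7 stroma libraries lay between 73.3 and 407. Without WT tumor 4 the log2 fold change was -0.69 for Itga2b and -1.67 for Vwf (adjusted p = 0.117 by limma).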

How the results depend on the processing

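In stroma the count of members that passed and of other lineage genes that passed was 0 as reported, under all 8 alternatives and without each library in turn. In tumor the count of members that passed was 1 as reported, 0 with quantile normalization and 0 with the replicate block, and 0 to 1 with each library left out. The count of other lineage genes that passed in tumor was 16 as reported, 9 with the replicate block and 8 to 14 with each library left out. Within a compartment, WT and IL-6 KO libraries of the same number did not deviate together. Their r lay between -0.03 and 0.13 in stroma and between -0.02 and 0.00 in tumor. The numbers were thus not taken to pair WT with IL-6 KO libraries. Whether stroma and tumor libraries of the same number deviated together was not tested. The log2 fold change of Itgb3 in stroma, -0.09 as reported, lay between -0.34 and 0.25 with each library left out and was positive at 0.25 without IL-6 KO stroma replicate 3, and no other member changed direction under any alternative. Pf4 in both tables, Gp9 in stroma and Vwf and Itga2b in tumor had values of few steps in at least some libraries, and the part of depth in their spread was not tested.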
